A study of Mus musculus with 6 samples.

Results

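The genes described here are 9 transcription factors of the nephron. *Hnf4a*, *Hnf4g* and *Maf* are factors of the proximal tubule. *Pax2*, *Pax8* and *Lhx1* are grouped here under the nephron epithelium at large, and *Irx1*, *Sim1* and *Emx1* are a mixed group of factors of single segments or stages. Rows were picked out by gene symbol, and all 9 genes were found, in 29 transcript rows out of 54721 rows and 23276 gene symbols. RNA was sequenced from whole kidneys of 6 mice labelled postnatal day 22. In 3 of them (*Pkd1* F/RC SKO, genotype KspCre; *Pkd1* F/RC) 1 *Pkd1* allele is floxed and the other carries the hypomorphic RC mutation, and in the other 3 (*Pkd1* F/RC DKO) both copies of the miR-17~92 cluster are floxed as well. Ksp/Cre, a recombinase active in renal tubules, is carried by both groups, so the *Pkd1* lesion is shared by all 6 kidneys. By that activity, the cells outside the tubules keep their floxed alleles. Recombination in each tubule segment, the proximal tubule included, was not measured here.

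The values below are means over SKO and DKO kidneys together. The table holds 1 mean abundance for each transcript, as log2 CPM (counts scaled to a fixed library size), and no value for a single kidney or a single group. Its remaining columns are the authors' own comparison of DKO with SKO, which were not used. No difference between the genotypes is therefore given for any gene, no error can be set on any level, and the depth of each library is unknown. For the same reason the deletion could not be checked by group, and the host transcript of the cluster, *Mir17hg*, is known only by its mean of 4.21 CPM. The lowest value in the table, -5.25 on the log2 CPM scale or 0.0263 CPM, is held by 4617 rows and is taken as the level of a transcript with no or almost no reads. In whole kidney, fewer cells of a type and less RNA per cell cannot be told apart.

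These factors act at successive steps of nephron formation. *Pax2* and *Pax8*, paired-box proteins, specify the renal lineage, and *Lhx1*, a LIM-homeodomain protein, acts in the nephric duct and the early nephron. *Hnf4a*, a nuclear receptor, drives the maturation of proximal tubule cells, and Iroquois factors such as *Irx1* pattern the intermediate segment that forms the loop of Henle.

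Fixed lists of marker genes were read beside the kidney label. All 30 genes of the 9 lists for kidney cell types (proximal tubule, thick ascending limb, distal convoluted tubule, connecting tubule and principal cell, intercalated cell, podocyte, endothelium, macrophage, fibroblast and smooth muscle) had a mean of at least 1 CPM, from 3.14 CPM for *Pvalb* to 1030 CPM for *Slc34a1*. That minimum was also reached by 55.9% of all gene symbols and by the liver and red blood cell markers below, so this count alone does not identify the tissue. The macrophage marker *Adgre1* is listed under its older symbol, *Emr1*. The neuronal markers *Syt1* and *Snap25* had 0.242 and 0.0991 CPM, and the nephron progenitor markers *Six2*, *Cited1* and *Eya1* had 0.0860, 0.828 and 0.296 CPM. The red blood cell markers *Hbb-b1* and *Hba-a1* had 52.6 and 72.9 CPM, with reads that may be split between near-identical globin copies, and the liver markers *Alb* and *Apoa2* had 13.4 and 1.34 CPM.

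All 9 factors had a mean of at least 1 CPM in their most abundant row, against 55.9% of all gene symbols. To compare genes, the mean CPM of the RefSeq row was divided by the length of its transcript in kilobases (kb). For genes with no matched RefSeq mRNA, which include none of the members, the highest row and the longest transcript were used. On this scale the median of the 9 genes was 4.93 CPM per kb, against 0.928 for the 22778 genes to which a length could be given, and each of the 9 lay above that median. This turned with the genes compared. Among genes of at least 1 CPM, *Lhx1*, *Hnf4g* and *Sim1* lay below the median, at percentiles 18.5, 22.1 and 46.5, and among genes with a RefSeq mRNA *Lhx1* alone lay below it, at percentile 48.8. By the matched transcript lengths, the order from the highest to the lowest level was *Hnf4a*, *Pax8*, *Maf*, *Irx1*, *Pax2*, *Emx1*, *Sim1*, *Hnf4g* and *Lhx1*. With lengths limited to the RefSeq gene span, *Maf* came before *Pax8* and the other places were unchanged. By their RefSeq rows *Hnf4a* exceeded *Lhx1* 34.3-fold in CPM per kb, and *Lhx1* also had more abundant assembled rows, which were not scaled by length. Neighbours in the order were often close, with ratios of 1.08 for *Irx1* over *Pax2*, 1.16 for *Pax2* over *Emx1*, 1.18 for *Emx1* over *Sim1* and 1.17 for *Hnf4g* over *Lhx1*. Whether such neighbours differ beyond the spread between kidneys cannot be read from pooled means.

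**Figure D1:**
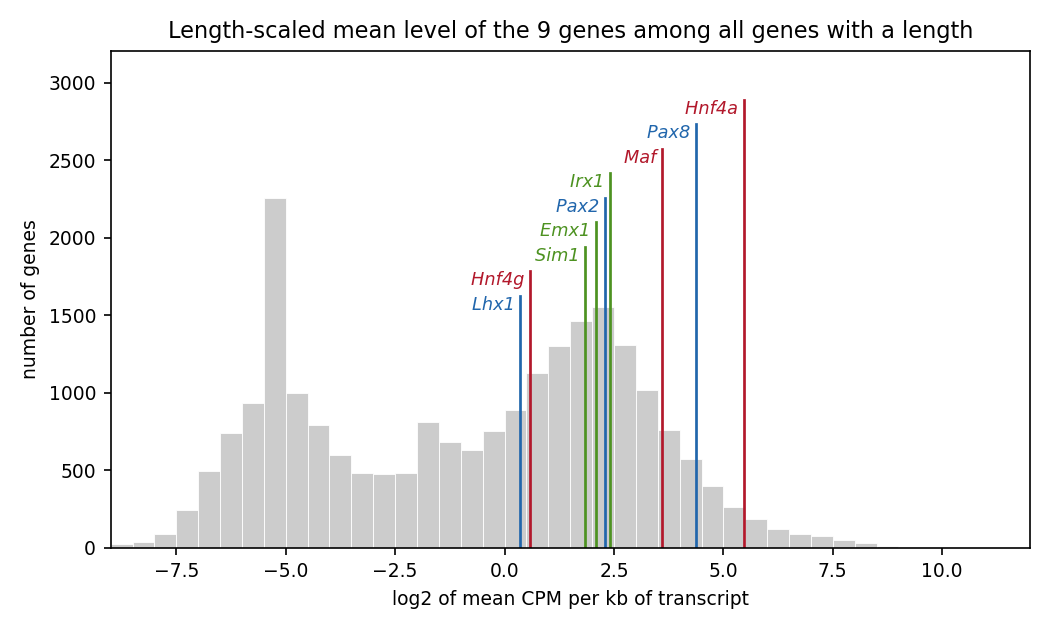
Histogram of the log2 of the mean CPM per kb of transcript over 22778 genes (grey bars, bins of 0.5), with a line for each of the 9 factors (red, proximal tubule; blue, nephron epithelium at large; green, *Irx1*, *Sim1* and *Emx1*). *Hnf4a* lies at 44.1 CPM per kb near the upper end, and *Lhx1*, at 1.28 by its RefSeq row, is the lowest of the 9. This level of *Lhx1* is above the median of all genes plotted but below that of genes with at least 1 CPM.

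Among the proximal tubule factors, *Hnf4a* was the most abundant. Per kb it exceeded *Maf* 3.66-fold, or 2.10-fold with lengths limited to the RefSeq gene span. The *Hnf4a* gene lies on the forward strand of chromosome 2 (mm10, 163506808 to 163572910). The RefSeq transcript had a mean log2 CPM of 7.59, or 192.1 CPM, which is 44.1 CPM per kb and above 97.4% of all genes. Of its 5 rows, 4 lay within 0.1 of the highest on the log2 scale. The remaining assembled row had 4.68, or 25.7 CPM. Rows of a gene that overlap can count the same reads, so near-equal values of several rows do not show that each isoform is abundant.

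*Hnf4g*, the paralog of *Hnf4a* on chromosome 3 (3508030 to 3658052, forward strand), was listed in a single RefSeq row. Its mean log2 CPM was 1.74, or 3.34 CPM. Per kb of transcript this is 1.502, above 55.4% of all genes but only 22.1% of genes with at least 1 CPM, and *Hnf4a* exceeded it 29.4-fold. The coding sequences of the pair, 1422 and 1254 bases without the stop codon, were 70.6% identical over 1250 aligned bases. Reads as short as 51 bases that fall in near-identical stretches could be discarded by the mapping quality filter, which was not tested.

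*Maf*, a large basic leucine zipper factor, lies on the reverse strand of chromosome 8 (115682942 to 115707794). An assembled row was its highest, with a mean log2 CPM of 6.59 or 96.3 CPM. The RefSeq row followed at 6.26 or 76.6 CPM, and another assembled row had 3.24 or 9.42 CPM. The level per kb depended on the length used. It was 12.05 CPM per kb with the matched GENCODE transcript of 6360 bases, and 21.04 with the RefSeq gene span of 3642 bases, which is a limit for the length of the RefSeq row. With that span *Maf* stood above *Pax8* rather than below it.

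Of the factors grouped here under the nephron epithelium at large, *Pax8* had the highest level per kb. The gene (chromosome 2, 24420560 to 24475599, reverse strand) had a mean log2 CPM of 5.72 in its RefSeq row, or 52.7 CPM, and 20.6 CPM per kb. A further row that carries its symbol, assembled from the reads, had only -4.02 or 0.0617 CPM, close to the lowest value of the table. This was the only one of the 29 rows under 1 CPM.

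*Pax2* (chromosome 19, 44756045 to 44837871, forward strand) was listed in 7 rows, the most of any of the 9 genes. Of these, 6 lay within 0.1 of each other on the log2 CPM scale, from 4.43 in the RefSeq row to 4.50 in the highest assembled row, or 21.5 to 22.6 CPM. The last assembled row had 2.06, or 4.16 CPM. Per kb *Pax2* reached 4.93 CPM, and *Pax8* exceeded it 4.17-fold. Their coding sequences were 69.1% identical over 1148 aligned bases.

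*Lhx1* (chromosome 11, 84518284 to 84525535, reverse strand) had the lowest level per kb of the 9, 1.28 CPM, above 53.3% of all genes and 18.5% of those with at least 1 CPM. The RefSeq row had a mean log2 CPM of 2.31 or 4.94 CPM, and the assembled rows had 2.73 and 3.11, or 6.66 and 8.65 CPM. The level per kb rests on the RefSeq row, the least abundant of them, and none was computed for the assembled rows. The last place of *Lhx1* among the 9, its percentiles and its ratio to *Hnf4a* therefore hold for the RefSeq row only.

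*Irx1*, *Sim1* and *Emx1* lay close together per kb. *Irx1* (chromosome 13, 71957921 to 71963723, reverse strand) was listed in 1 RefSeq row with a mean log2 CPM of 3.66 or 12.6 CPM, which is 5.31 CPM per kb. *Emx1*, a homeobox gene best known from the developing cerebral cortex (chromosome 6, 85187438 to 85204462, forward strand), had 2.73 in its RefSeq row and 3.00 in an assembled row, or 6.62 and 8.02 CPM, and 4.24 CPM per kb. *Sim1*, a bHLH-PAS factor best known from the hypothalamus (chromosome 10, 50894754 to 50989152, forward strand), was listed in 5 rows between 4.55 and 4.78, or 23.4 to 27.5 CPM. Its RefSeq transcript is the longest of the set at 7355 bases. As a result *Sim1* had more reads than *Irx1* and *Emx1* but a lower level per kb, 3.58 CPM, above 69.5% of all genes and 46.5% of those with at least 1 CPM.

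**Figure D2:**
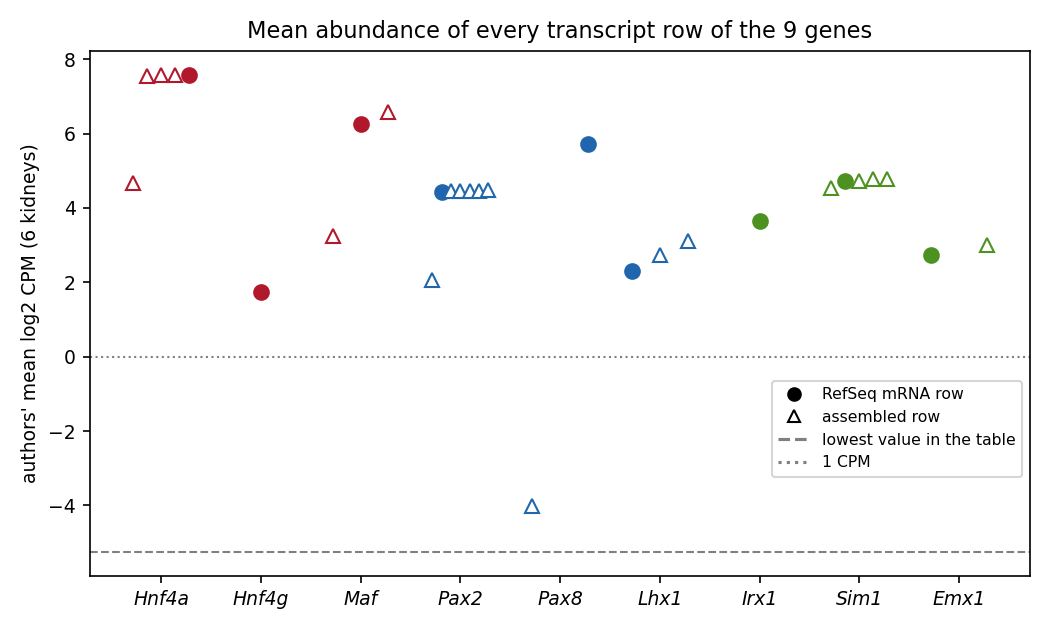
Mean log2 CPM over the 6 kidneys for each of the 29 transcript rows of the 9 genes (circles, RefSeq mRNA rows; open triangles, rows assembled from the reads), with the lowest value in the table dashed and 1 CPM dotted. The rows of *Pax2* and *Hnf4a* crowd together except for 1 each, and a single *Pax8* row lies near the lowest value.

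Genes that overlap a member on the opposite strand could add reads if the counting ignored strand, and the sources used here do not state its strand setting. The annotation places such genes at *Hnf4a*, *Maf*, *Pax2* and *Pax8*. Of these, only *1700039E22Rik*, within *Pax2*, is listed in the table, at its lowest value. The others have no value of their own here, and their part in the levels was not tested. Annotated genes on the same strand overlap *Hnf4a*, *Hnf4g* and *Pax2*. None of these has a value here either, and their part was not tested.

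The factors were next set beside other genes of their families, a selection made after the values were seen. Of the 9 Pax genes, *Pax2* and *Pax8* alone had a mean of at least 1 CPM in the highest row, and the other 7 had at most 0.0804 CPM (*Pax5*). Of 8 Lhx genes, *Lhx1* was joined only by *Lhx6*, at 1.44 CPM, and the rest had at most 0.0569 CPM (*Lhx2*). The Iroquois family was more widely present, and *Irx2* and *Irx3* followed *Irx1* with 3.41 and 3.53 CPM per kb against its 5.31, whereas *Irx4* had 0.128 CPM and *Irx6* 0.0762 CPM. *Emx2* had the higher level of its pair, with 9.35 CPM per kb against 4.24 for *Emx1*. *Sim2* had 2.53 CPM per kb, beside 3.58 for *Sim1*. In the Maf family 5 of 7 genes had at least 1 CPM, and *Mafk*, a small Maf protein, came next to *Maf* with 4.70 CPM per kb.

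**Figure D3:**
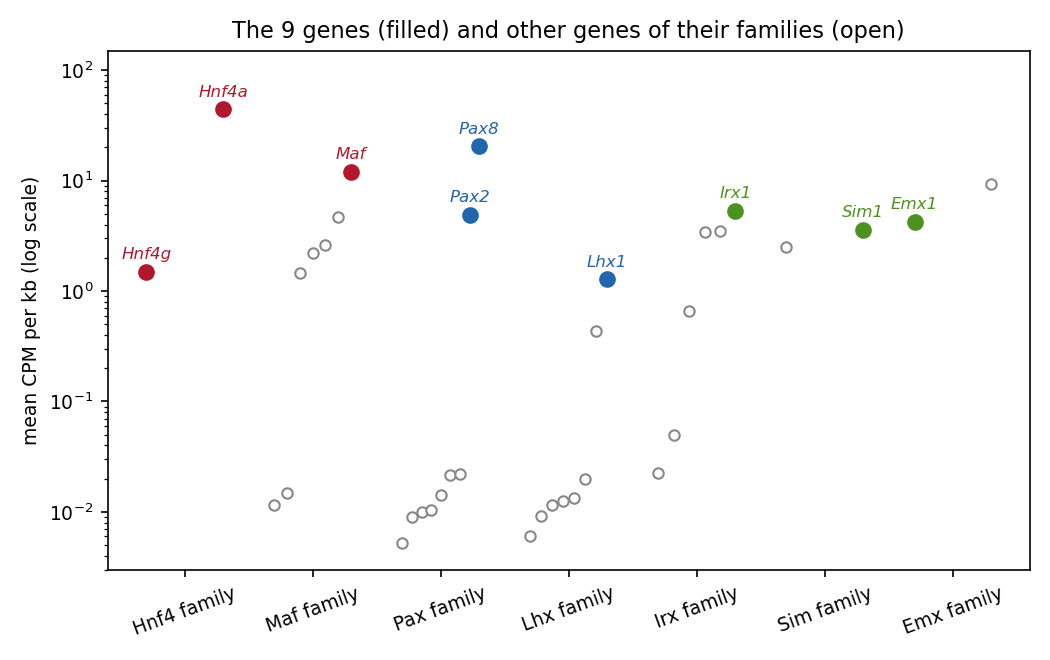
Mean CPM per kb on a log scale for the 9 factors (filled) and the other genes of their families (open). *Pax2* and *Pax8* are separated from the other 7 Pax genes, which lie at or below 0.0222 CPM per kb, whereas the Emx, Sim and Irx families hold several genes at similar levels.

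Among 25 other transcription factors known from kidney development or nephron segments, 18 had a mean of at least 1 CPM, against 55.9% of all gene symbols. The median of the list was 3.53 CPM per kb, beside 4.93 for the 9 genes. *Tfcp2l1*, a factor of the collecting duct, had the highest mean of the list, 285.5 CPM, and with 30.8 CPM per kb it lay below *Hnf4a* on the scale per length. The 7 factors below the least abundant of the 9 genes in CPM were *Six2*, *Osr1*, *Foxd1*, *Lmx1b*, *Pax3*, *Eya1* and *Cited1*. Most of these act in progenitor cells or in the early kidney, and the highest of them, *Cited1*, had 0.828 CPM.

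All 20 genes of a list of proximal tubule genes commonly named as downstream of HNF4 or HNF1 factors had at least 1 CPM. The share among all gene symbols was 55.9%, and the median of the list was 47.7 CPM per kb. *Slc34a1*, the sodium-phosphate cotransporter, had 1030 CPM and 423.1 CPM per kb. The list shares genes, *Slc34a1* among them, with the proximal tubule markers above. Whether its genes depended on HNF4 or HNF1 in these kidneys was not tested. *Ugt2b38*, a glucuronosyltransferase, was the only one of the list below *Hnf4g*, with 2.58 CPM and 1.36 CPM per kb. It belongs to a multigene family whose reads may be split between copies, so its level is uncertain.

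The deleted cluster codes for 6 miRNAs on the forward strand of chromosome 14. A miRNA pairs with messenger RNAs mainly through its seed, bases 2 to 8, and the cluster has only 4 different seeds. The mature sequences are shown because the seeds define the matches sought in the 9 genes. They are taken from RefSeq (GRCm38.p6), 5′ to 3′, with the seed in capitals. *miR-17-5p* lies at 115043684 to 115043706 and *miR-92a-3p* at 115044476 to 115044496.
miR-17-5p: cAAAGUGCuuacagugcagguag
miR-20a-5p: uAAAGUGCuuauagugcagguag
miR-18a-5p: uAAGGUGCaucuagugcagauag
miR-19a-3p: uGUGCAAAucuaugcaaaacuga
miR-19b-3p: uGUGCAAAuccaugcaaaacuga
miR-92a-3p: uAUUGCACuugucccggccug

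Matches were sought on the transcript strand of the annotated 3′ untranslated region (3′-UTR) of each gene, as GCACTTT for miR-17 and miR-20a, GCACCTT for miR-18a, TTTGCAC for miR-19a and miR-19b, and GTGCAAT for miR-92a. Only *Maf* and *Hnf4a* held one, and 26.4% of the 18914 3′-UTRs examined hold at least 1. *Maf* had 4 matches in a 3′-UTR of 4316 bases. Among all 3′-UTRs between 0.8 and 1.25 times that length, 69.6% held a match and the mean was 1.25. *Sim1* had no match in 4811 bases, whereas 73.8% of 3′-UTRs of similar length held one. *Hnf4a* had 1 match in 2814 bases, and *Pax2*, *Lhx1*, *Pax8*, *Irx1*, *Hnf4g* and *Emx1*, with 3′-UTRs of 282 to 1824 bases, had none.

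The matches are shown with their flanks in lower case, to let the paired bases be seen beside the seeds above. The match in *Hnf4a* lies at chr2:163572739-163572745, from base 2648 of the 3′-UTR. In *Maf* the miR-17 and miR-20a match lies at chr8:115704302-115704308. The miR-19 matches lie at chr8:115702661-115702667, chr8:115702557-115702563 and chr8:115701999-115702005, beyond the end of the RefSeq *Maf* gene at 115703253, so they belong only to the longer GENCODE transcript.
Hnf4a, miR-18a: gatcaatctGCACCTTcctgtggtt
Maf, miR-17 and miR-20a: tgctttgggGCACTTTaaattgtgc
Maf, miR-19, first: cataaacacTTTGCACaaatcaaag
Maf, miR-19, second: agtctatcaTTTGCACacagagttt
Maf, miR-19, last: cttggctctTTTGCACagaacacag

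A match of letters is not a measured site, and the pooled means cannot show whether *Maf* or *Hnf4a* differed where the cluster was deleted.

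**Figure D4:**
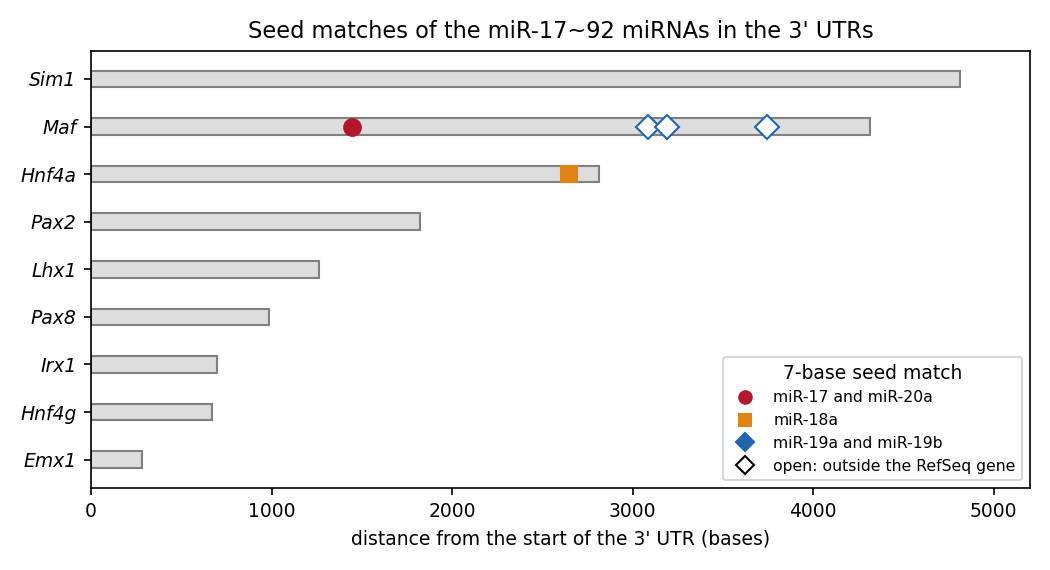
Annotated 3′-UTRs of the 9 genes, drawn to scale in bases from their start, with 7-base seed matches of the cluster's miRNAs (filled, inside the RefSeq gene; open, outside it). *Maf* holds 4 matches, of which 1 is inside the RefSeq gene, *Hnf4a* holds 1, and the longest 3′-UTR, that of *Sim1*, holds none.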

How the data were processed

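Total RNA of 6 kidneys was sequenced as strand-specific 51 base single-end reads. Per the labels and the paper's methods, the authors trimmed the reads and aligned them by TopHat2 2.0.12 (mm10, iGenomes gene models), removed alignments with a mapping quality under 10, and used Cufflinks, featureCounts (Subread 1.4.6) and edgeR 3.2.4. The deposited value used here for each transcript is an average over the 6 kidneys on the log2 CPM scale, as the authors computed it. Whether logs or CPM were averaged is not stated in the sources used here. A value called mean CPM is this average taken off the log scale. The deposited table also holds 4 columns of the authors' own comparison (log2 fold change, likelihood ratio statistic, p-value and FDR), which were not used. The planned test of SKO against DKO needs counts of single kidneys and was not run. Depth is unknown.

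Rows were matched by the symbol in their name, and 1 row per gene was taken as the highest mean CPM. For levels per kb of 20167 genes, the highest RefSeq mRNA row with a GENCODE M21 transcript of its identifier was divided by that transcript's length. GENCODE M21 is on GRCm38, the assembly of mm10. For 2611 further genes, the highest row of any kind was divided by the longest transcript of the symbol. GENCODE lengths can differ from the authors' annotation. A 3′-UTR was taken as the bases after the stop codon of the matched transcript. The seed search was tested on simulated sequences. Coding sequences were aligned globally with Biopython 1.88 (match 1, mismatch -1, gap opening -5, extension -0.5). Python 3.11.15, numpy 2.4.6 and pandas 2.3.3 were used. The named genes are all 9 members with every row and, from each fixed list of other factors or targets, the 2 highest in CPM (1 of them in each list is not reported here) and those below the lowest member; family lists, overlapping genes and the marker genes given by name were added after values were seen. Members and lists were chosen with earlier results of these data known. Labels give the age as postnatal day 22, and the paper's text gives it as 1 day less.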

Additional observations from a re-analysis of the deposited data

How the results depend on the processing

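The median of the 9 genes was 4.50 on the log2 CPM scale with the highest row of each gene, 5.72 with the CPM summed over all rows, 4.43 with the highest RefSeq row and 2.73 with the lowest row. Rows can share reads, so the sum counts some reads more than once. The median percentile of level per kb was 75.8 among all genes, 57.5 among genes of at least 1 CPM and 73.3 among genes with a RefSeq mRNA. All 9 genes also reached minimums of 0.5 and 2 CPM, and 8 reached 1 CPM by their lowest row. With the longest transcript the median stayed at 4.93 CPM per kb, and the levels of *Pax8*, *Hnf4a* and *Hnf4g* changed, to 15.6, 44.0 and 1.44 CPM per kb. With seed matches of 6 bases (miRNA bases 2 to 7), 7 of the 9 genes held one and the matches rose from 5 to 21, while 57.4% of all 3′-UTRs hold such a match. Counting only matches inside the RefSeq gene left 2 matches, 1 each in *Maf* and *Hnf4a*. That alternative, the RefSeq span as a limit on length and the lowest row against 1 CPM were chosen after seeing the data. The comparison of protein sequences was replaced by coding sequences. Alternatives that need single kidneys (DESeq2, other normalizations, no filter and leaving out a kidney) were not run. No paired analysis was possible because the columns carry no single kidneys.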
